A study of Mus musculus with 2 samples.

Results

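The intracellular fatty acid binding proteins Fabp3, Fabp4, Fabp5 and Fabp7 and the retinoic acid binding proteins Crabp1 and Crabp2 were examined in macrophages from the abdominal cavity of mice, lacking or carrying MeXis. MeXis is a long noncoding RNA gene known for its link to the cholesterol exporter Abca1. The members were found as all non-control probes whose gene name in the array files was one of these 6 names. Of the 6 names, 5 had a probe, 8 probes in all and 17 spots, among 36921 gene names, 56351 probes and 59305 non-control spots. No probe carried the name Crabp2, so Crabp2 was not measured here. Of the 5 genes with a probe, 4 were well above background on both arrays and Crabp1 on neither. The members were chosen by the brightness of Fabp5 and by its difference between these same arrays, so the difference of Fabp5 is a description and was not tested.

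RNA came from MeXis null macrophages and from wild-type (WT) macrophages, both of the strain given as bl6, cultured in DMEM with FBS and P/S with no further treatment named. Each genotype was a pool of 3 samples hybridised with the dye Cy3 to 1 one-colour Agilent array. There was therefore no replicate array and no test, and every difference below is between these 2 pools. The labels give neither age nor sex, nor how the MeXis null allele was made or in which cells MeXis was missing. The probe for AI427809, the symbol of the MeXis transcript, read 8.44 on MeXis null and 12.3 on WT, too close to background on both to check the labels.

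Fatty acid binding proteins are small cytosolic proteins that fold into a barrel around a single fatty acid, retinoid or similar lipid, and carry it through the cytosol to membranes, enzymes and the nucleus. Fabp4 and Fabp5 are the forms known from macrophages. Fabp4, also abundant in adipocytes, and Fabp5, first known from skin, hand ligands to peroxisome proliferator-activated receptors (PPARs), the nuclear receptors that sense fatty acids. Fabp3 is the heart and muscle form, Fabp7 the brain form, and the Crabp proteins carry retinoic acid to its nuclear receptors or to the enzymes that break it down.

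The probes are 60 bases long, and the readings below rest on few of them, so the start of each is given here. The first 30 bases of the Fabp5 probe (chr3:10016185-10016244, mm9, plus strand, from base 524 of the target transcript) are shown beside those of a probe that carries the name NAP114472-1 and the description Unknown (chr8:35370217-35370276, mm9, minus strand), because the 2 probes share a run of 50 bases, marked in capitals as far as it is shown. This second probe was found by a search for shared sequence after the values had been seen.
Fabp5: gtcaaatgCAACAAACAGCTTCACTTCTTT
NAP114472-1: cggacataaaCAACAAACAGCTTCACTTCT
The 2 Fabp3 probes, from base 575 (chr4:129992643-129992702, mm9, plus strand) and base 584 (chr4:129992652-129992711, mm9, plus strand), overlap by 51 bases, again in capitals, and are not independent readings of the gene.
Fabp3 probe 1: tttatttttTAAAACTGTATCCAAAGGGTG
Fabp3 probe 2: TAAAACTGTATCCAAAGGGTGCTCCAAGGT
The 2 Fabp4 probes lie far apart in the transcript, from base 75 (chr3:10208442-10208501, mm9, minus strand) and base 472 (chr3:10204452-10204511, mm9, minus strand), and are shown with the single Fabp7 probe (chr10:57508039-57508098, mm9, plus strand, from base 544). These 3 probes shared no run of 20 bases with any other probe.
Fabp4 probe 1: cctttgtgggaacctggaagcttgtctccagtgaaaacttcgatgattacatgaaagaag
Fabp4 probe 2: aagaggcctggatggaaatttgcatcaaac
Fabp7: tgaagcactggtcactaattataagtttgt
No gene annotation on mm9 was used here, so the exon or UTR that holds each probe is not given.

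The Fabp5 probe, 1 spot per array, read far higher on the MeXis null array. A probe that overlaps it in sequence did not, with a difference of -0.03. The spots around the Fabp5 spot were also higher on MeXis null, with a median difference of 0.93. Fabp7 was lower, and Fabp4 and Fabp3 were higher by less than 2-fold. For Fabp4 the difference lay within the spread between spots. For Fabp3 it did so with both overlapping probes before a correction for the array surface, and with only probe 1 after it. Each difference is on the log2 scale, MeXis null minus WT, after each array was scaled to the 75th percentile of its probes well above background on both arrays. Of the 4 members measured on both arrays, 1 (Fabp5) was at least 2-fold higher, the case for 7.35% of all 15474 genes measured on both arrays, and 1 (Fabp7) was at least 2-fold lower, the case for 4.78%. After that correction, described below, Fabp5 and Fabp7 were again the 1 higher and the 1 lower member, where 3.65% and 3.44% of all genes passed 2-fold upward and downward. The median difference was 0.70 over these 4 members and 0.04 over all genes. Fabp5, chosen for its difference on these same arrays, enters the counts and this median, so they only describe the members. Apart from Fabp5 the differences were 0.85 for Fabp3, 0.56 for Fabp4 and -1.35 for Fabp7. The scanner's own error was about 0.20 for such a difference. A wider measure came from 285 probes with about 10 spots per array, among which the difference varied from spot to spot of a probe with a median SD of 0.47. The limit used for a single spot was 0.91 (1.88-fold), the 95% range of that spread. It covers the arrays only and holds nothing of the variation between mice.

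**Figure D1:**
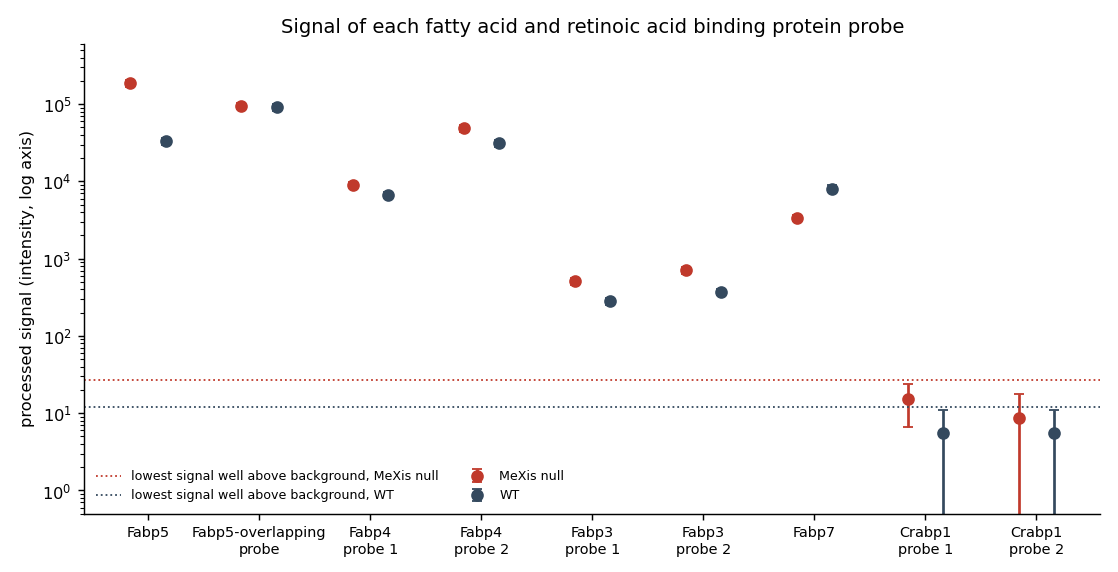
Processed signal (intensity, log axis) of each probe on the MeXis null (red, left of each pair) and WT (dark, right) arrays, with the scanner's error of each signal as a bar that is cut off at the foot of the axis where it reaches 0; dotted lines mark the lowest signal called well above background on each array. Fabp5 stands at 187575 on MeXis null and 32877 on WT, the probe that overlaps it stands at 95042 on MeXis null and 91364 on WT, and both Crabp1 probes lie near or under the dotted lines.

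The Fabp5 probe read 187575 ± 18758 on MeXis null and 32877 ± 3288 on WT (processed signal with the scanner's error, 1 spot). The difference was 2.42, or 5.36-fold higher, with limits of 1.51 to 3.34 from the spread between spots. It ranked 14th from the highest of 15474 genes. Among the 500 genes closest to Fabp5 in mean signal, 0 differed by as much upward, while 4.80% of them passed 2-fold upward and 2.60% downward. The spot was not saturated on either array. Fabp5 was chosen for its large difference on these same arrays. Its rank and its excess over the limits, here and after the correction below, describe the reading and are not support for it.

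The spots around Fabp5 on the array were also higher on MeXis null. Among its 100 nearest spots well above background on both arrays, the difference had a median of 0.93 and quartiles of 0.49 and 1.32, and ran between -0.26 and 2.57. Of these spots, 43 were at least 2-fold higher, 0 at least 2-fold lower, and 1 as high as Fabp5. After the local median was subtracted from every spot (local surface correction), Fabp5 differed by 1.49, or 2.82-fold higher. With this correction the SD from spot to spot of a probe was 0.33 and the limit 0.64, which the corrected difference exceeded. With the 30 nearest spots in place of 100, the local median was 1.08 and the corrected difference 1.34. Both corrected differences, 1.49 and 1.34, lay below the lower limit of 1.51 that the spread between spots gave for the uncorrected reading.

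The probe that shares 50 bases with the Fabp5 probe did not show this difference. NAP114472-1 read 95042 ± 9504 on MeXis null and 91364 ± 9136 on WT (processed signal with the scanner's error, 1 spot). Its difference was -0.03, with limits of -0.95 to 0.88, and 0.00 after local surface correction, where the median of its 100 nearest spots was -0.04. Both probes of the pair were among the bright spots of both arrays, yet only the one named Fabp5 differed beyond the spread between spots. The gap between the 2 differences was 2.46, and 1.49 after local surface correction. Which transcripts bound to each probe was not tested.

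Before local surface correction, gaps of this size were rare among probes of overlapping sequence. Over 176 pairs of probes that shared a run of at least 40 bases and were well above background on both arrays, the gap between the 2 differences had a median of 0.47, a 90th percentile of 1.38 and a maximum of 2.91. Of these pairs 3, the Fabp5 pair among them, had a gap as large as that of Fabp5. After local surface correction the median gap was 0.33 and the 90th percentile 1.10. Then 9 pairs, the Fabp5 pair among them, had a gap as large as that of the Fabp5 pair. Of the 176 pairs, 88 joined probes of different names, the Fabp5 pair among them. Of those 88, 2 had a gap as large as the Fabp5 pair before the correction and 7 after it. Among the 88 pairs of the same name, 1 did before the correction and 2 after it. The mean over the Fabp5 probe and the overlapping probe was a difference of 1.19, and 0.75 after local surface correction. The 5.36-fold reading of Fabp5 therefore rested on 1 spot per array.

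**Figure D2:**
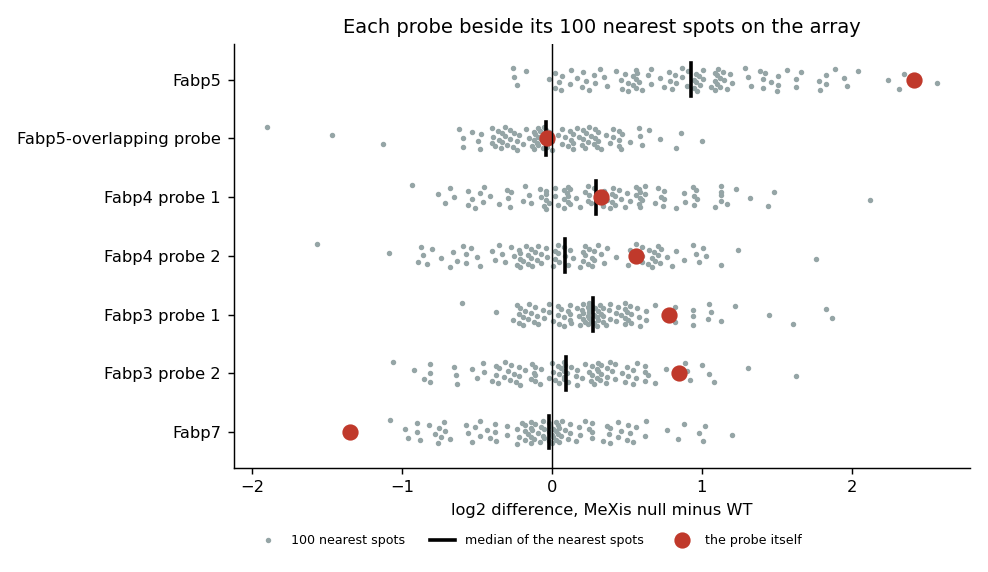
Log2 difference (MeXis null minus WT) of each probe (large red point) beside its 100 nearest spots well above background on both arrays (small grey points) and their median (black bar). The spots around Fabp5 are centred on 0.93 and those around its overlapping probe on -0.04, while Fabp7 lies below all 100 of its nearest spots.

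Fabp4, the form shared by macrophages and adipocytes, was read by a pair of probes that do not overlap. Probe 2 read 48563 ± 4856 on MeXis null and 30960 ± 3096 on WT, a difference of 0.56 with limits of -0.35 to 1.47. Probe 1 read 8992 ± 899.3 on MeXis null and 6700 ± 670.0 on WT, a difference of 0.33 with limits of -0.58 to 1.25. Both probes were thus higher on MeXis null by less than the spread between spots. After local surface correction probe 2 differed by 0.47 and probe 1 by 0.04, and with the arrays scaled to the spike-in probes instead, Fabp4 (probe 2) differed by -0.17. The difference of Fabp5 exceeded that of Fabp4 by 1.86, and by 1.02 after local surface correction, on the Fabp5 probe alone. Among the 500 genes closest to Fabp4 in mean signal, 56 differed by as much upward.

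Fabp3, the heart and muscle form, was well above background with both of its probes on both arrays. Probe 2 read 711.5 ± 71.4 on MeXis null and 371.5 ± 37.5 on WT, a difference of 0.85 with limits of -0.07 to 1.76. Probe 1 read 509.6 ± 51.6 on MeXis null and 279.3 ± 28.1 on WT, a difference of 0.78 with limits of -0.14 to 1.69. The 2 overlapping probes were higher on MeXis null to within 0.07 of each other, in contrast to the pair at Fabp5, and neither exceeded the limit of 0.91. After local surface correction probe 2 differed by 0.75, beyond the limit of 0.64 that then applied, and probe 1 by 0.50, within it. The gap was then 0.25.

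Agreement between the Fabp3 probes came with the software's own surface fit. Before that fit was divided out, probe 2 read 976.0 on MeXis null and 331.5 on WT, and probe 1 read 467.5 on MeXis null and 406.0 on WT. The unscaled log2 differences were then 1.56 for probe 2 and 0.20 for probe 1. The fitted surface factors were 1.37 on MeXis null and 0.892 on WT at probe 2, and 0.917 on MeXis null and 1.45 on WT at probe 1. For the Fabp5 spot the factors were 1.03 on MeXis null and 0.973 on WT, and the signals before the fit were 192609 on MeXis null and 31990 on WT.

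Fabp7, the brain form, was lower on MeXis null. Its probe read 3372 ± 337.3 on MeXis null and 8078 ± 807.8 on WT, a difference of -1.35, or 2.55-fold lower, with limits of -2.26 to -0.44. The surroundings of this spot did not share the difference: its 100 nearest spots had a median of -0.02 and 0 of them were as low. After local surface correction the difference was -1.33. Fabp7 ranked 309th from the lowest of 15474 genes, and 4 of the 500 genes closest to it in mean signal were as low. The reading is 1 spot per array and no second probe was present to set beside it.

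Crabp1, which binds retinoic acid in the cytosol, did not rise well above background with either of its probes. One probe read 15.3 on MeXis null and 5.49 on WT. The other was printed as 10 spots, of which 7 were used after outlier spots were left out, and read between 5.37 and 12.2 on MeXis null and between 3.61 and 6.62 on WT. No fold is given for values that lie at background.

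**Figure D3:**
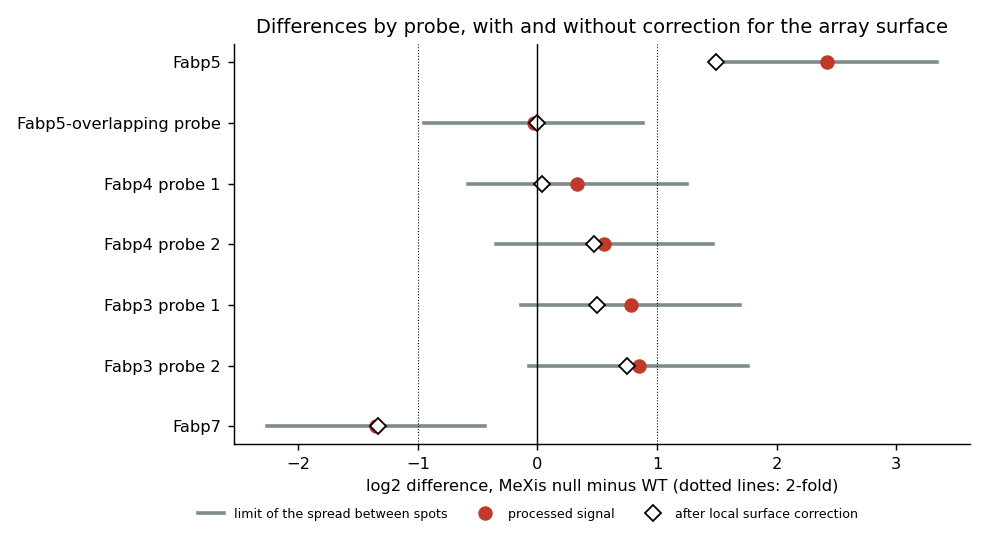
Log2 difference (MeXis null minus WT) of each probe above background on both arrays from the processed signal (red points) and after local surface correction (open diamonds); grey bars are the limits of the spread between spots and dotted lines mark 2-fold. For Fabp5 and Fabp7 the bars leave out 0, while the probe that overlaps Fabp5 lies at -0.03.

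Among other proteins of the same fold, Fabp9, the testis form, was well above background on MeXis null only. It read 43.5 on MeXis null against 16.1 on WT, or 2.54-fold higher after scaling. For genes above background on only 1 array, the dim side was set at the higher of its own signal and the lowest signal called well above background on that array. For Fabp9 this was its own WT signal, with a scanner's error of 4.83, so the 2.54-fold is not a lower bound. Dim probes in general read higher on MeXis null. Without a filter on dim probes the median difference of all genes was 0.46, against 0.04 with it. The lowest signal called well above background was 27.3 on MeXis null and 12.1 on WT. How much of the Fabp9 value came from this offset was not tested. The liver form Fabp1, the intestinal forms Fabp2 and Rbp2, the ileal form Fabp6, the myelin form Pmp2, Fabp12 and Rbp7 stayed near background on both arrays. Each of them still read higher on MeXis null, such as Pmp2 at 9.8 against 3.4 on WT and Rbp2 at 10.0 against 8.3 on WT.

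**Figure D4:**
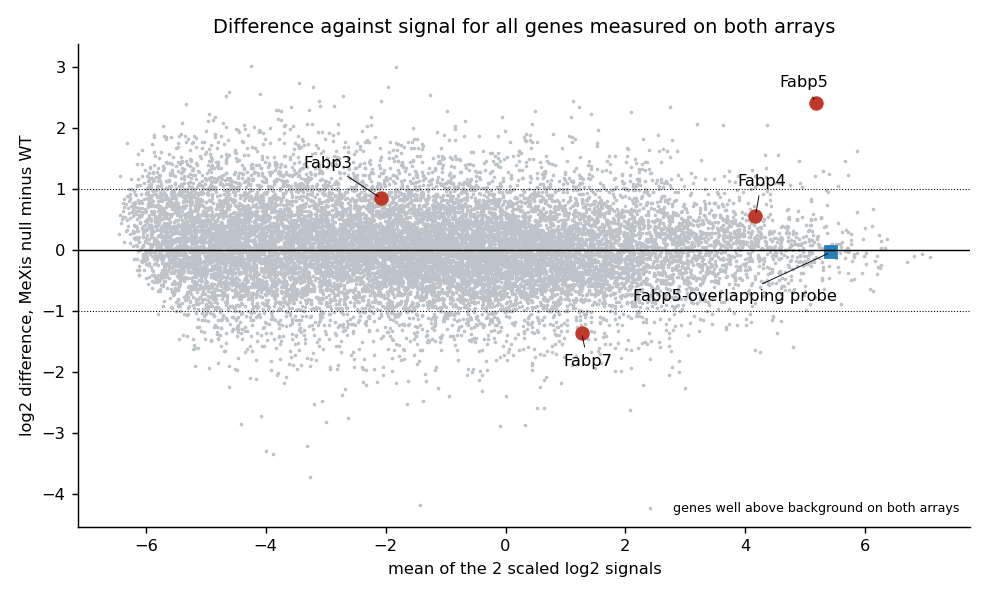
Log2 difference (MeXis null minus WT) against the mean of the 2 scaled log2 signals for all 15474 genes measured on both arrays (grey), with the fatty acid binding proteins (red circles) and the probe overlapping Fabp5 (blue square) marked. Fabp5 lies at 2.42 with no gene of like signal as high, the overlapping probe lies at -0.03 among genes of similar signal, and dotted lines mark 2-fold.

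Genes with the most similar pair of signals were found by the distance from Fabp5 in the 2 scaled log2 values, which with 2 arrays describes level and difference only. Among the closest to Fabp5 were Anxa1 (annexin A1, at a distance of 0.79), Pbld1 (0.85), the macrophage glycoprotein gene Gpnmb (0.97) and the lysosomal membrane protein gene Lamp1 (1.01). These 4 differed by less than Fabp5, by 1.46 for Anxa1, 1.22 for Pbld1, 1.46 for Gpnmb and 1.10 for Lamp1. The closest to Fabp4 were Gabarap (0.04), Rpl7 (0.10), Rpl27a (0.14), Atox1 (0.16) and Mtch1 (0.18), so the 5 closest to Fabp4 lay within 0.18 of it and those of Fabp5 between 0.79 and 1.01 away.

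Fabp4 and Fabp5 lie in a cluster on chromosome 3 with Fabp9, Fabp12 and Pmp2. Of the 9 genes listed from this stretch, 4 were measured on both arrays and 1 of them was at least 2-fold lower. The sorting nexin gene Snx16 read 166.4 on MeXis null and 577.0 on WT, a difference of -1.88, which was -1.22 after local surface correction and 0.38 when spots marked as outliers were kept. Pag1, an adaptor of membrane signalling, differed by -0.93, and by -1.36 after the correction, so that 2 of the 4 were then at least 2-fold lower. The zinc finger gene Zfand1 differed by -0.24, and by 0.12 after the correction, and 2 of its 4 probes had the opposite sign. The inositol phosphatase gene Impa1 differed by 0.56, and by 0.32 after the correction. The median of the 4 genes was -0.59 (-0.55 after the correction), against 0.04 (-0.04) over all genes. None of the 4 was past 2-fold upward, unlike the Fabp5 probe.

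PPARs receive ligand from Fabp4 and Fabp5, and several of the genes they switch on handle lipid. Of 15 listed partners and targets, 12 were measured on both arrays. None passed 2-fold upward and 1 downward (2 after local surface correction), with a median of -0.24 against 0.04 over all genes. Angptl4, an inhibitor of lipoprotein lipase, read 3781 on MeXis null and 21622 on WT, a difference of -2.61, or 6.09-fold lower, and -2.56 after local surface correction. Lpl, lipoprotein lipase itself, read 51041 on MeXis null and 94237 on WT, a difference of -0.98, or 1.97-fold lower, and -1.41 after local surface correction. Its 6 probes above background on both arrays had the same sign.

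The highest of these genes were the receptor gene Ppard at 0.52 and the transcription factor gene Klf4 at 0.35, both inside the spread between spots. Ppard was at -0.05 after local surface correction. Pparg, the receptor most abundant in fat and macrophages, named here for its role after its value was seen, read 14700 on MeXis null and 14240 on WT, a difference of -0.04. Ppara and Pdk4 stayed near background on both arrays, and Cd36, the fatty acid transporter, had no usable probe because its spot was marked as an outlier.

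Fatty acids are brought in and activated by Slc27 and Acsl proteins and freed from stored lipid by lipases. Of 14 such genes 13 were measured on both arrays. Of these 1 passed 2-fold upward and 2 downward, with a median of 0.20 against 0.04 over all genes. Mgll, the monoacylglycerol lipase that completes the breakdown of stored triglyceride, read 7272 on MeXis null and 28121 on WT, a difference of -2.04, or 4.12-fold lower, and -1.69 after local surface correction. The acyl-CoA synthetase gene Acsl3 read 79.2 on MeXis null and 189.8 on WT, a difference of -1.35. It was -1.83 after local surface correction and -0.87, under 2-fold, with normexp background correction. At the high end stood Slc27a3, an acyl-CoA synthetase of the fatty acid transport family, which read 93.8 on MeXis null and 35.6 on WT, a difference of 1.31. Acsl1 differed by 0.75, inside the spread, and by 0.21 after local surface correction.

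The retinoid genes, whose ligands the Crabp proteins carry, were mixed. Of 17 listed, 11 were measured on both arrays. Of these 1 passed 2-fold upward and 2 downward, with a median of -0.20 (-0.56 after local surface correction) against 0.04 (-0.04) over all genes. Aldh1a1, which oxidises retinaldehyde to retinoic acid, read 836.5 on MeXis null and 225.6 on WT, a difference of 1.80, or 3.48-fold higher, and 1.31 after local surface correction. It was 0.96, under 2-fold, with normexp background correction, and 1.10 before the software's surface fit was divided out. Its relative Aldh1a2 read 613.8 on MeXis null and 325.1 on WT, a difference of 0.83, and 0.28 after the correction. Both enzymes were higher on MeXis null, but only Aldh1a1 was outside the spread.

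The lowest of the retinoid genes were Tgm2 and Rarb. The transglutaminase gene Tgm2 read 6579 on MeXis null and 17566 on WT, a difference of -1.51, and again -1.51 after local surface correction. The retinoic acid receptor gene Rarb read 70.7 on MeXis null and 165.5 on WT, a difference of -1.32, and -1.35 after the correction. Cyp26b1, which breaks down retinoic acid and was named after its value was seen, was well above background on WT only, at 20.4 on MeXis null and 39.1 on WT, at least 1.53-fold lower. Dhrs3, which reduces retinaldehyde to retinol and was also named after its value was seen, differed by -0.20, with 1 of its 2 probes of the opposite sign. Cyp26a1, Stra6, Lrat, Aldh1a3 and Rbp4 stayed near background on both arrays.

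**Figure D5:**
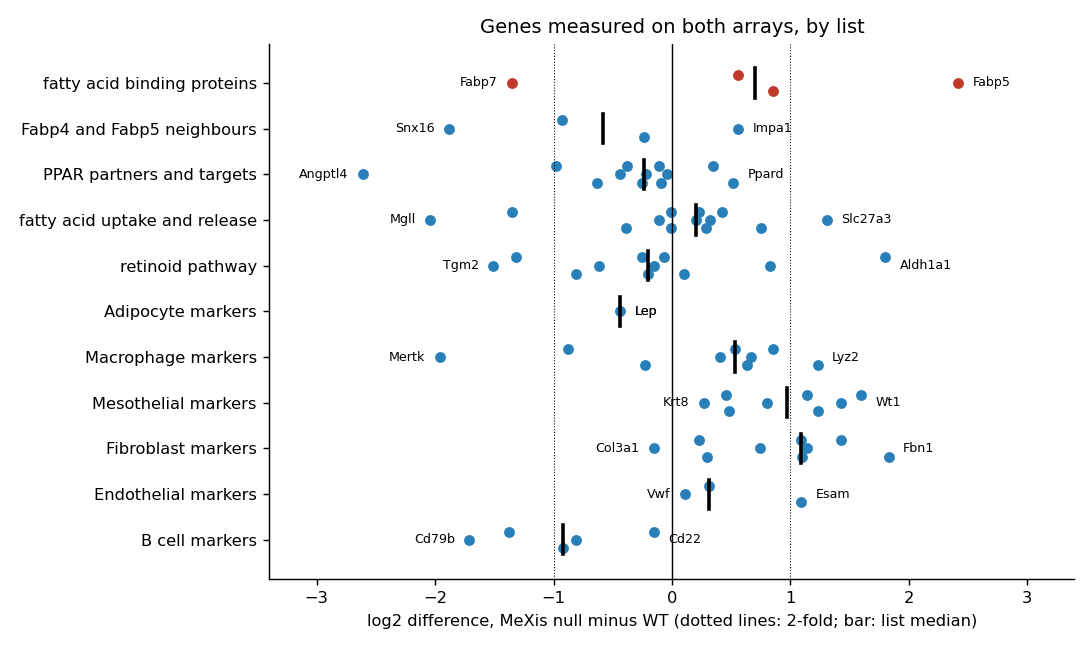
Log2 difference (MeXis null minus WT) of each gene measured on both arrays, by list, with the highest and lowest gene of each list named; black bars are list medians and dotted lines mark 2-fold. Fabp5 at 2.42 lies above, and Angptl4 at -2.61 below, every other gene drawn.

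Macrophage markers were detected on both arrays, and so were markers of other cells. Of 10 macrophage markers 9 were measured on both arrays, with a median difference of 0.53 (0.05 after local surface correction) and a summed scaled signal of 204.1 on MeXis null and 145.0 on WT. Of the 9, 1 passed 2-fold upward and 1 downward: the lysozyme gene Lyz2 differed by 1.23 (0.52 after the correction) and the engulfment receptor gene Mertk by -1.96 (-1.16 after the correction). Of 7 adipocyte markers only Lep, at 107.0 on MeXis null and 136.7 on WT, was above background, while Adipoq, Plin1, Cfd, Retn, Cidec and Pck1 were not. The summed scaled signal of the 7 was 0.0718 on MeXis null and 0.0816 on WT, and their part in the Fabp4 signal was not tested. All 8 mesothelial markers were measured and 4 passed 2-fold upward, 3 after local surface correction. Their median was 0.97 (0.71 after the correction), and their summed scaled signal 1.06 on MeXis null and 0.474 on WT. Of 9 fibroblast markers measured on both arrays, 5 passed 2-fold upward, 4 after the correction, with a median of 1.09 (0.97 after it). The summed scaled signal of all 10 listed was 6.42 on MeXis null and 3.80 on WT. Over all genes measured on both arrays, 7.35% passed 2-fold upward and 4.78% downward (3.65% and 3.44% after the correction). The median over all genes was 0.04 (-0.04 after it).

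The fibroblast markers did not all run one way: Col3a1 differed by -0.15, and Lum was well above background on WT only. Lum read 40.3 on MeXis null and 130.5 on WT, or 3.45-fold lower after scaling, with its own dim signal taken. The difference of Aldh1a1 had the sign of the mesothelial and fibroblast medians, but also of the macrophage (0.53) and endothelial (0.31) medians. The part of any of these cells in it was not tested. Of 8 endothelial markers 3 were measured on both arrays (median 0.31, and 0.73 after local surface correction), with Cdh5, Tek and Emcn at background. The summed scaled signal of the list was 2.70 on MeXis null and 2.45 on WT. Its brightest gene, Vwf, read 5355 on MeXis null and 4647 on WT, a difference of 0.11, and -0.37 after the correction. For Vwf 2 of 3 probes had the opposite sign. Of 6 B cell markers 5 were measured on both arrays. Past 2-fold downward were 2 of them (4.78% of all genes), and 3 after the correction (3.44%). Their median was -0.92 (-1.07 after it), and the summed scaled signal of the list 1.08 on MeXis null and 1.79 on WT. In pooled RNA a change in the number of cells of a type and a change in RNA per cell cannot be told apart.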

How the data were processed

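The deposited scanner files give each spot's intensity on a linear scale. Per the file headers, Agilent Feature Extraction (version 11.5.1.1) subtracted background and divided out fitted surface trends, and coordinates are on mm9. The series matrix deposited by the authors held the same intensity for all 62976 features. Well above background were 26257 of 59305 non-control spots (44.3%) on MeXis null and 28463 (48.0%) on WT; no spot was saturated. Outlier spots (205 on MeXis null, 305 on WT) were left out, spots of one probe averaged on the log2 scale, and a gene taken from its brightest probe. Names were updated through RefSeq (GRCm38.p6): 32994 probes by accession, 10224 by symbol and 520 by synonym, with 12867 keeping the file's name. With 1 array per genotype, genes were called at 2-fold, without a test, and the number of arrays limits precision. Local surface correction chose neighbours by spot position. Named were all probes of the members, the 2 highest and 2 lowest genes of each list and the 5 genes most like Fabp5 and Fabp4; exceptions are named as such. The values of 2 genes under this rule are not reported here. The members and lists were chosen with earlier results of these data known. The steps were tested on simulated data. Python 3.11.15, pandas 2.3.3, statsmodels 0.14.6 and limma 3.58.1 were used. The alternatives were normexp, quantile and loess normalization, other scalings, filters, folds and probe summaries, kept outlier spots, the matrix values and surface correction. Signals before detrending, the probe overlapping Fabp5 and counts of members were added after seeing the data.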

Additional observations from a re-analysis of the deposited data

How the results depend on the processing

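The counts of alternatives below include some that could not differ from the main value. The matrix values were the same as the scanner intensities. For Fabp5 and Fabp7, with a single probe each, the median over probes was the main value again. Scaling by the median, scaling to a wider probe set and keeping outlier spots moved these genes only by a shared constant. Fabp5 then stood at 2.35, 2.36 and 2.41, and Fabp7 at -1.43, -1.41 and -1.36. The counts are therefore not that many separate checks. Fabp5 kept its sign in 13 of 14 alternatives and passed 2-fold in those 13. It differed by 1.69 with scaling to the spike-in probes, by 1.49 and 1.34 with local surface correction by 100 and 30 spots, by 1.19 as the mean with the overlapping probe, and by -0.03 when that probe took its place. Fabp7 kept its sign and passed 2-fold in all 12 alternatives, from -2.08 (spike-in probes) to -1.29. Fabp3 kept its sign in 12 of 12, at 0.11 with the spike-in probes, 1.32 with normexp and 1.48 before detrending. Fabp4 kept its sign in 11 of 12, the exception being -0.17 with the spike-in probes. That scaling moved the median of all genes to -0.69, from 0.04. Snx16 was at 0.38 with outlier spots kept, a value that drew on spots left out of its main reading. Why the spike-in probes gave a different constant was not tested.

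Of the 4 members, 2 were at least 2-fold higher with normexp (5.59% of all genes) and before detrending (9.52%), 2 were at least 1.5-fold higher (18.7%), and 0 were at least 3-fold lower (1.11%). The higher members were Fabp3 and Fabp5 each time, and Fabp5 had been chosen for its difference. Genes at least 2-fold higher were 160 with the spike-in probes, 565 and 556 with local surface correction by 100 and 30 spots, 6306 without a filter on dim probes, 727 with both signals at least 100, 2886 at 1.5-fold and 231 at 3-fold. Genes at least 2-fold lower were 4613 with the spike-in probes, 1824 without the filter, 2230 at 1.5-fold and 171 at 3-fold. Of the called genes 60.6% were higher, against 3.35% with the spike-in probes, 77.6% without the filter and 51.5% with local surface correction by 100 spots. The 444 values of 37 named list genes include the unchanged matrix values and scalings that shift all genes alike. Of these 444 values, 353 moved by less than the SD between spots. In 29, from 13 genes, the sign differed from the main value, and in 1 of these (Snx16) the main value was past 2-fold. Crabp2, with no probe, gave no value under any alternative. Crabp1 was at background and no value is given for it, but the counts without the filter on dim probes included it. No paired analysis was possible because each genotype had 1 array, and no replicate could be left out.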
